A study of Homo sapiens with 18 samples.

Results

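The transcripts of 38 lysosome genes were followed in A549 cells exposed to silica nanoparticles (NPs). The genes were chosen by name, as the probes of the array whose gene name in the scanner files is one of the 38. The list of names was written with earlier results of these data known. All 38 were found, out of 21028 gene names with a kept probe. They comprise TFEB, a transcription factor, 6 genes of lysosomal membrane proteins, 11 of proteases, 3 of proteins that handle lipids, 12 of glycan-degrading hydrolases and 5 of the proton pump.

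A549 is an established human line derived from a lung adenocarcinoma, and the Ludox NPs consist of amorphous silica in colloidal suspension. Cells were exposed for 2 h to 0.02 mg/mL of SM30 NPs (diameter 9 nm) or AS30 NPs (diameter 18 nm) in medium without serum, and were then left to recover in complete medium. Recovery lasted 3 h after SM30, and 3 h or 22 h after AS30. Each exposure had control cells of its own, which went through the same steps, the serum-free period included, without NPs. RNA of 3 biological replicates (A, B and C) in each of the 6 groups was hybridized to 18 one-color Agilent arrays. No SM30 cells were measured at 22 h in the samples used here.

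Lysosomes are acidic organelles in which proteins, glycans and lipids taken up from outside the cell, or delivered from within it, are broken down. A proton pump, the V-ATPase, acidifies them, hydrolases such as the cathepsins and glycosidases work at that low pH, and membrane proteins such as LAMP1 and LAMP2 line and shield the compartment. Many of these genes carry a palindromic sequence element in their promoters that TFEB binds, and TFEB reaches the nucleus when it is not held in the cytoplasm by phosphorylation, so that its activity and its own transcript level are separate quantities. Particles that a cell takes up commonly reach the lysosome.

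Promoter windows from RefSeq on GRCh38.p14, reaching from 250 bases before to 50 bases after a start site, were found for 25 of the 38 genes. Both motifs searched are palindromes, so both strands were covered by one search, and the longer one holds the shorter one. CACGTG was present in a window of 10 of the 25 genes (40%) and in 8.77% of the 27305 genes in the table. TCACGTGA was present in 6 of the 25 (24%) and in 1.18% of all genes. These letters describe the sequence and are no evidence of binding. Genes with a single window and genes with several, such as CD63 with 8, were counted alike, as holding the motif where any window did. Counted by window, CACGTG was present in 11 of the 38 windows of the members (28.9%) and in 7.26% of all 35116 windows. TCACGTGA was present in 7 of these 38 windows (18.4%) and in 0.98% of all windows. The stretches around a match are given for 7 members. NEU1 and CD63 hold the motif and were called at 22 h after AS30, and CTSA, MCOLN1, ATP6V0D1, GAA and LAMP1 hold the longer palindrome before the start site. All are written 5′ to 3′ on the strand of the gene and end before the start site, and the capitals mark the motif.
NEU1, chr6:31862902-31862987, minus strand: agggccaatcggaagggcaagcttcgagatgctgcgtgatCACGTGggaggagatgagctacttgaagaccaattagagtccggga
CD63, chr12:55729144-55729229, minus strand: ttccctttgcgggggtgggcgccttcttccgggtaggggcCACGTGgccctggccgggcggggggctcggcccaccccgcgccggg
CTSA, chr20:45891269-45891334, plus strand: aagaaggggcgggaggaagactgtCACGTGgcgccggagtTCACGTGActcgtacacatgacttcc
MCOLN1, chr19:7522569-7522623, plus strand: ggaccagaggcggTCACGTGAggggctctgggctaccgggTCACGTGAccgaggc
ATP6V0D1, chr16:67481170-67481257, minus strand: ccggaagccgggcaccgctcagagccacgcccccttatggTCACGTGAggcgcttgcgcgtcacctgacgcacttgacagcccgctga
GAA, chr17:80101509-80101580, plus strand: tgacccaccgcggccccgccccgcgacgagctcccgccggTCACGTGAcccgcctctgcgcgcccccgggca
LAMP1, chr13:113297170-113297238, plus strand: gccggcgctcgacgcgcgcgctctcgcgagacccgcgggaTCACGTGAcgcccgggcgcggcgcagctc

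The differences below are on the log2 scale of the normalized spot signal and are the mean of 3 ratios, each of a treated array over the control array of the same letter. They were tested with limma in 1 fit over all probes, with Benjamini-Hochberg adjustment, and a gene was called where the adjusted p was under 0.05. A gene with several probes was represented by its brightest one. Errors are standard errors (SE) of the fit for a mean of n = 3 ratios. The spread behind them was estimated from the ratios of all exposures together. Each of the 38 genes therefore has the same SE in every exposure, such as 0.27 for NEU1 and 0.48 for LGMN. These errors do not describe the scatter of the 3 ratios of the exposure named. Of the 38 genes, 37 were well above background on all 18 arrays. IDUA, which cleaves iduronate from glycosaminoglycans, was well above background on 2 of 3 control arrays in both AS30 sets and on all other arrays. Of 8 epithelial or A549 markers, among them KRT8, KRT18 and CDH1, 8 were well above background on all 18 arrays, and of 10 markers of other cell types 2, CD14 and COL1A1, were. A further 5 of these 10 were so on some arrays and 3 on none. Of 6 alveolar type II markers, 3 were well above background on all 18 arrays and 3 on some. Since the RNA came from whole cultures, fewer cells of a type and less RNA per cell cannot be told apart.

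The arrays lay on 5 slides. SM30 replicate A shared a slide with the 3 SM30 controls, and SM30 replicates B and C lay on another. The AS30 set at 3 h was split by slide, with all treated arrays on 1 and all controls on 1 other, so that no comparison within a slide was possible there. The AS30 arrays at 22 h shared a slide with control C, whereas controls A and B lay on the slides of the 3 h sets and were the only arrays that linked those slides. With slide as a fixed block, none of the 38 genes was called after AS30 at 3 h, where 52 of 25136 probes were.

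**Figure D1:**
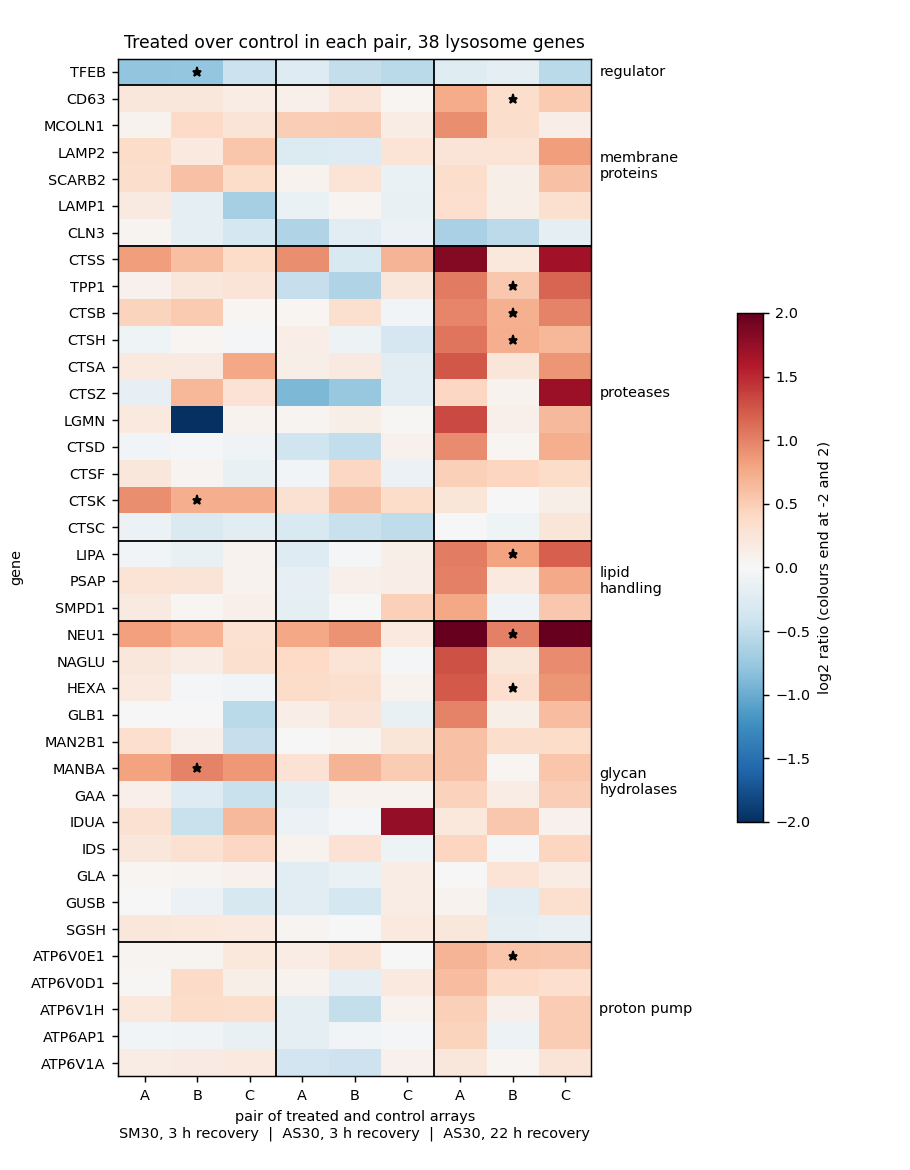
Log2 ratio of treated over control in each of 9 pairs (columns) for the 38 genes (rows, grouped by role), red for higher and blue for lower in treated cells, with a star in the middle column of an exposure where the gene was called. At 22 h after AS30 the rows are mostly red, most strongly in pairs A and C, and the dark blue cell under SM30 is LGMN in pair B, at -2.60.

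The question of the first comparison is which lysosome genes differed from controls 3 h after exposure to the smaller SM30 NPs. MANBA and CTSK were higher and TFEB was lower in SM30-treated cells. These 3 of 38 genes were called, 2 in the higher direction, where 4.35% of the 28664 probes tested were called, and 1 in the lower direction, where 3.13% were. The shares among the members (2 and 1 of 38) are near those of the whole array. The median difference of the 38 genes was 0.17, against -0.05 over all probes, and 25 of the 38 were above 0.

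MANBA encodes beta-mannosidase, which removes mannose from the ends of glycans during glycoprotein breakdown. Its log2 signals were 8.91, 8.97 and 8.94 in SM30 replicates A, B and C and 8.11, 7.98 and 8.07 in the controls. The groups did not overlap, and every treated array lay above every control. The difference was 0.89 ± 0.14 (SE), a 1.85-fold higher level, with an adjusted p of 0.00995 in limma.

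CTSK encodes cathepsin K, a cysteine protease known for degrading collagen in bone. Log2 signals of CTSK were 9.08, 8.96 and 9.15 in the SM30 arrays against 8.16, 8.23 and 8.43 in the controls, again without overlap. This amounted to 0.79 ± 0.11 (SE), or 1.73-fold (limma adjusted p = 0.00704).

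TFEB moved the other way. It read 7.62, 7.68 and 7.73 in the SM30 arrays and 8.41, 8.45 and 8.16 in the controls, so that all treated arrays lay below all controls. The TFEB transcript fell by 0.66 on the log2 scale (SE 0.13, limma adjusted p = 0.0209), to 0.632 of the control level.

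On the slide that held SM30 replicate A and all 3 controls, the differences were 0.86 for MANBA, 0.81 for CTSK and -0.72 for TFEB, from 1 treated array. The fit with slide as a fixed block compares these same arrays, so it is no separate check. With normexp background correction all 3 genes were called at smaller differences, of 0.54 for MANBA, 0.50 for CTSK and -0.29 for TFEB. That setting added an offset of 50 to every signal, which itself shrinks log2 ratios, so these sizes are not like for like. The number of calls in this set depended on single pairs, over the array as among the 38 genes. Without pair A or without pair B none of the 38 genes was called, and without pair C 1 was. Over the array, 567 of 28633, 289 of 28658 and 298 of 28658 probes were called without pair A, B and C, against 2146 of 28664 with all pairs. Taking slide as a fixed block also left no call among the 38 genes, where 333 of 28598 probes were called.

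NEU1, the sialidase that trims sialic acid from glycans, had the next largest rise of one sign at 0.60 ± 0.27 (SE, adjusted p = 0.210), and CTSS, the elastin-degrading cathepsin S, was at 0.60 ± 0.33. Neither was called. Lower values of one sign in the 3 pairs were found for CTSC, which activates granule proteases, at -0.21 ± 0.11, and for ATP6AP1, an accessory subunit of the V-ATPase, at -0.09 ± 0.13. LGMN, the asparaginyl protease legumain, had the lowest mean of all members, at -0.78 ± 0.48. That mean came from 1 array, since LGMN read 6.35 in SM30 replicate B against 9.02 and 8.92 in replicates A and C and 8.83 to 8.95 in the controls.

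Among the groups of genes, the 11 proteases had a median of 0.19, the 6 membrane proteins of 0.22, the 5 proton pump genes of 0.17, the 12 glycan-degrading hydrolases of 0.12 and the 3 lipid genes of 0.11. The medians of the single pairs over the 38 genes were 0.18, 0.13 and 0.11. The called genes came from 3 different groups. Of the 17 genes with more than 1 kept probe, 12 had all probes on one side of 0, and the second probe of ATP6AP1 was at 0.45.

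AS30 NPs, at the same concentration and time, were set against their own controls at 3 h. None of the 38 genes was called, where 1.5% of the 28596 probes tested were called higher and 1.01% lower. An unadjusted p under 0.05 was found for 5 of the 38 (13.2%) and for 24.4% of all probes. The median of the members was 0.05, against 0.01 over all probes, and 22 of the 38 lay above 0.

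The largest rises of one sign in the 3 pairs were those of NEU1 (0.62 ± 0.27), MANBA (0.50 ± 0.14) and CTSK (0.42 ± 0.11), with adjusted p-values of 0.205, 0.0929 and 0.0822 in limma. MANBA read 9.16, 9.07 and 8.99 with AS30 and 8.87, 8.38 and 8.48 in the controls, and CTSK read 8.57, 8.84 and 8.75 against 8.26, 8.25 and 8.39. In both genes the treated arrays lay above the controls. The largest falls of one sign were in CTSZ, a carboxypeptidase of the cathepsin family (-0.62 ± 0.30), TFEB (-0.43 ± 0.13) and CTSC (-0.42 ± 0.11), with adjusted p-values of 0.243, 0.102 and 0.0813.

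TFEB read 8.17, 7.92 and 8.17 with AS30 and 8.42, 8.40 and 8.72 in the controls, without overlap. Its value and that of CTSC passed the threshold only where slide was taken as a random block in limma. The adjusted p-values were then 0.0261 and 0.0356, and the signs were kept. That fit called 3877 of 28618 probes over the array, against 720 of 28596 in the main fit. It estimated the correlation of arrays on one slide at -0.083. IDUA had a high mean (0.53 ± 0.35) that rested on pair C, whose ratio of 1.75 stood against -0.11 and -0.04.

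The responses to the 2 particles at 3 h were compared directly, as the SM30 ratios minus the AS30 ratios. None of the 38 genes was called, as were 0.014% of all probes in the higher direction and 0% in the lower one. The unadjusted p was under 0.05 for 3 members (7.89%), against 14.6% of all probes. MANBA differed by 0.39 (95% interval -0.06 to 0.85), CTSK by 0.37 (0.01 to 0.73) and TFEB by -0.23 (-0.64 to 0.17). The calls after SM30 and their lack after AS30 are therefore not shown to differ, and the intervals leave room for differences of over 0.6 in these 3 genes. Of the 5 proton pump genes 4 were above 0 in this difference, with ATP6V1H, a subunit of the soluble part of the pump, the highest at 0.51 (0.07 to 0.96, adjusted p = 0.296). The SM30 and AS30 arrays shared no slide.

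At 22 h after AS30, 8 of the 38 lysosome genes (NEU1, LIPA, TPP1, CTSB, CTSH, HEXA, ATP6V0E1 and CD63) were higher than in controls and none was lower. Over the array, 2.54% of the 28155 probes tested were called higher and 1.04% lower. The 38 genes had a median difference of 0.44, against a median of -0.005 over all probes, and 35 of the 38 lay above 0, against 49.5% of all probes. Of the members, 26 (68.4%) had an unadjusted p under 0.05, against 22.9% of all probes. In 30 genes all 3 pairs were above 0, and in 2, TFEB and the brightest CLN3 probe, all 3 were below.

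NEU1 showed the largest change. Its log2 signals were 13.40, 11.99 and 13.34 in AS30 replicates A, B and C and 10.88, 10.99 and 11.20 in the controls. All treated arrays were above all controls, with replicate B the lowest of the 3. The difference was 1.89 ± 0.27 (SE), or 3.70-fold (limma adjusted p = 0.0188).

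LIPA encodes the acid lipase that splits cholesteryl esters and triglycerides in the lysosome. It read 13.28, 12.73 and 13.28 against 12.26, 11.93 and 12.09, without overlap, a difference of 1.00 ± 0.12 (2.01-fold, limma adjusted p = 0.0171). The other genes that handle lipids were also above 0, without a call for the brightest probe. PSAP, the precursor of the saposins, which help hydrolases reach sphingolipids, was at 0.66 ± 0.16 (adjusted p = 0.0591). SMPD1, acid sphingomyelinase, was at 0.41 ± 0.18 (adjusted p = 0.222).

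Of the 11 proteases 3 were called and all 11 were above 0, with a median of 0.73. CTSB, the cysteine protease cathepsin B, read 15.33, 14.72 and 15.63 against 14.35, 14.01 and 14.63 (0.90 ± 0.14, 1.86-fold, limma adjusted p = 0.0207). CTSH, the aminopeptidase cathepsin H, read 11.09, 10.93 and 11.07 against 10.02, 10.21 and 10.40 (0.82 ± 0.13, 1.77-fold, limma adjusted p = 0.0222). Neither gene overlapped between treated and control arrays, although the lowest CTSB value with AS30 was close to the highest control.

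TPP1, which cleaves tripeptides from the ends of proteins, read 9.41, 7.97 and 9.62 with AS30 and 8.37, 7.43 and 8.46 in the controls. These ranges overlapped, since replicate B was low in treated and in control cells, while within each pair the treated array was higher. The paired difference was 0.91 ± 0.18 (1.88-fold, limma adjusted p = 0.0386), and TPP1 was not called where arrays were compared without pairing. With normexp background correction it was 0.58, and with slide as a fixed block 0.54, as CTSB was then at 0.60 in place of 0.90, neither being called with that block.

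CTSS had the second largest rise of one sign, at 1.24 ± 0.33, but ratios of 1.84, 0.20 and 1.68 and an adjusted p of 0.0775. Its dimmer second probe, well above background on 9 arrays, was at -0.63 (adjusted p = 0.788). CTSZ (0.73 ± 0.30), LGMN (0.69 ± 0.48), CTSD, the aspartic protease cathepsin D (0.57 ± 0.18), and CTSF, cathepsin F (0.42 ± 0.13), were not called. CTSK and CTSC were near 0, at 0.12 ± 0.11 and 0.05 ± 0.11.

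Among the 12 glycan-degrading hydrolases, NEU1 and HEXA were called and 11 were above 0, with a median of 0.38. HEXA, the alpha subunit of the beta-hexosaminidase that degrades gangliosides, read 12.75, 12.21 and 12.77 against 11.53, 11.88 and 11.88 without overlap (0.81 ± 0.16, 1.76-fold, limma adjusted p = 0.0403). The other kept probe of HEXA was at 0.70 and was not called (limma adjusted p = 0.0757). NAGLU, which acts on heparan sulfate, was just outside the threshold at 0.82 ± 0.19 (adjusted p = 0.0508). GLB1, beta-galactosidase, was at 0.58 ± 0.19, MAN2B1, an alpha-mannosidase, at 0.43 ± 0.16, GAA, the glycogen-degrading acid glucosidase, at 0.37 ± 0.14, and MANBA at 0.39 ± 0.14. IDS, GLA, GUSB, IDUA and SGSH lay between -0.04 and 0.28.

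In the proton pump, ATP6V0E1, a small subunit of the membrane part, read 15.13, 15.02 and 15.17 against 14.46, 14.47 and 14.63, with a spread of under 0.1 (SD) in both groups. The difference was 0.59 ± 0.10 (1.50-fold, limma adjusted p = 0.0285). ATP6V0D1, of the same part, was at 0.45 ± 0.13, ATP6V1H and ATP6V1A, of the soluble part, at 0.37 ± 0.14 and 0.17 ± 0.13, and ATP6AP1 at 0.29 ± 0.13. All 5 genes were above 0 and 1 was called.

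Of the membrane proteins, CD63, a tetraspanin of late endosomes and lysosomes, read 17.31, 17.07 and 17.20 against 16.56, 16.72 and 16.67 (0.54 ± 0.11, 1.46-fold, limma adjusted p = 0.0419). The groups did not overlap. MCOLN1, a calcium channel, was at 0.47 ± 0.16, LAMP2 at 0.46 ± 0.17, SCARB2, the receptor that carries glucocerebrosidase to the lysosome, at 0.35 ± 0.13 and LAMP1 at 0.26 ± 0.16. These 4 were not called.

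TFEB read 8.31, 8.50 and 8.22 against 8.54, 8.69 and 8.75, a difference of -0.32 ± 0.13 (limma adjusted p = 0.182). The treated arrays lay below the controls, and the value was not past the threshold. TFEB was thus at -0.66, -0.43 and -0.32 in the 3 exposures, called in the first, with all 9 ratios below 0.

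**Figure D2:**
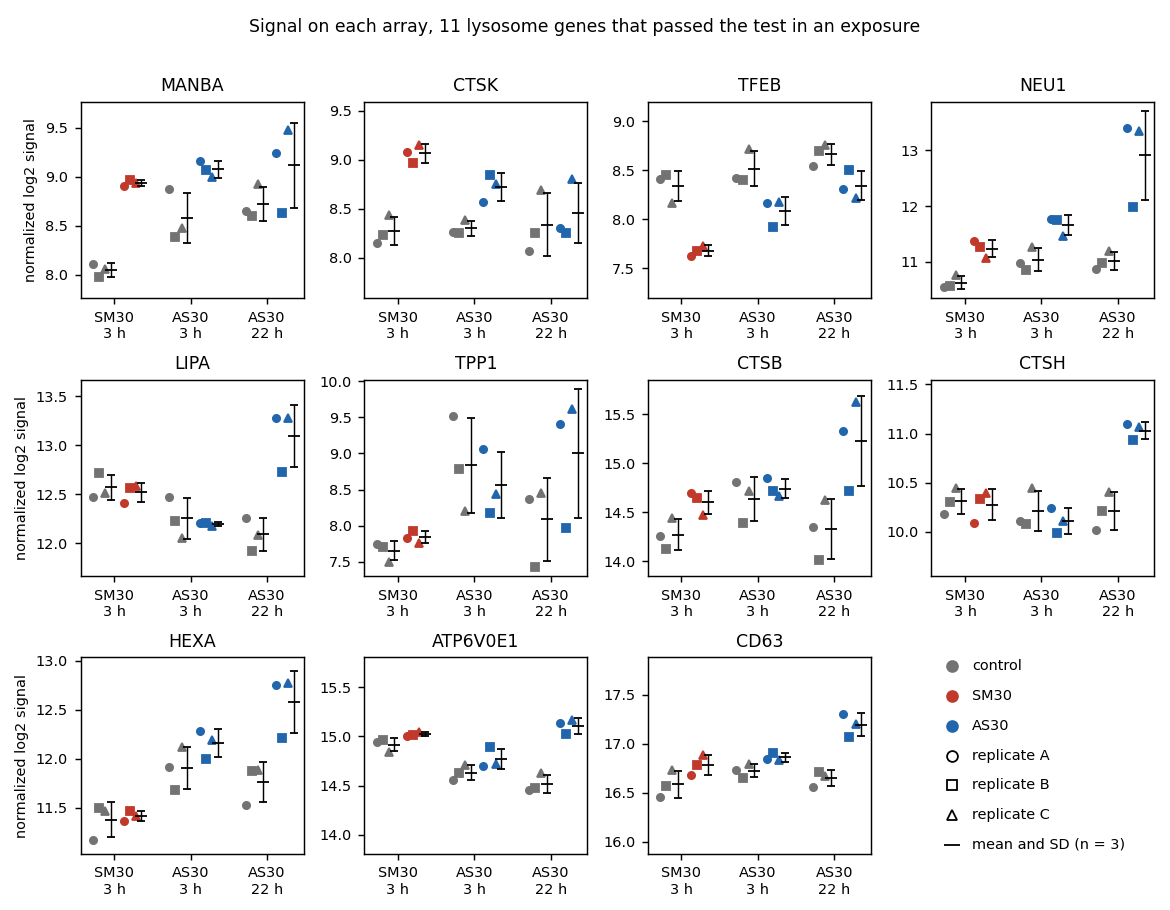
Normalized log2 signal on every array for the 11 genes called in an exposure, with controls in gray, SM30 in red and AS30 in blue, symbols for the replicates, and a bar for the mean and SD of 3 arrays. MANBA, CTSK and TFEB separate from controls after SM30, and the other 8 genes rise after AS30 at 22 h, where replicate B is the lowest treated array in each.

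Replicate B stood apart in size at 22 h. The medians over the 38 genes were 0.59, 0.17 and 0.53 in pairs A, B and C, and pair B had the lowest ratio of the 3 in 28 genes. Pair B also had the lowest shares of spots well above background. With AS30 the share was 64.5% in A, 56.9% in B and 67.0% in C, and the controls had 52.4%, 51.9% and 58.4%. The part of this in the result was not tested. Without pair A or without pair C none of the 38 genes was called, whereas without pair B 13 were, the same 8 among them. Calls over the whole array moved likewise, from 1008 of 28155 probes with all pairs. They were 2 of 27942 without pair A, 184 of 26899 without pair C and 1205 of 28088 without pair B.

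Pairs of the other exposures enter the shared estimate of spread. Without SM30 pair A, B or C the number called at 22 h was 3, 3 and 4, and without AS30 3 h pair A it was 4. In these fits 275, 181, 375 and 498 of the 28155 probes were called over the array. Fitted on its own 3 ratios the 22 h exposure gave no called probe on the whole array, members included, with 2 residual degrees of freedom. Slide as a fixed block also left none of the 38 called, where 29 of 27811 probes were. Against control C alone, which lay on the slide of the treated arrays, the 8 called genes kept their sign, with values from 0.48 for ATP6V0E1 to 1.71 for NEU1, and the median of the 38 was 0.34, with 33 above 0. The fixed block makes this same comparison at 22 h and rests on 1 control array, so it is no separate check.

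**Figure D3:**
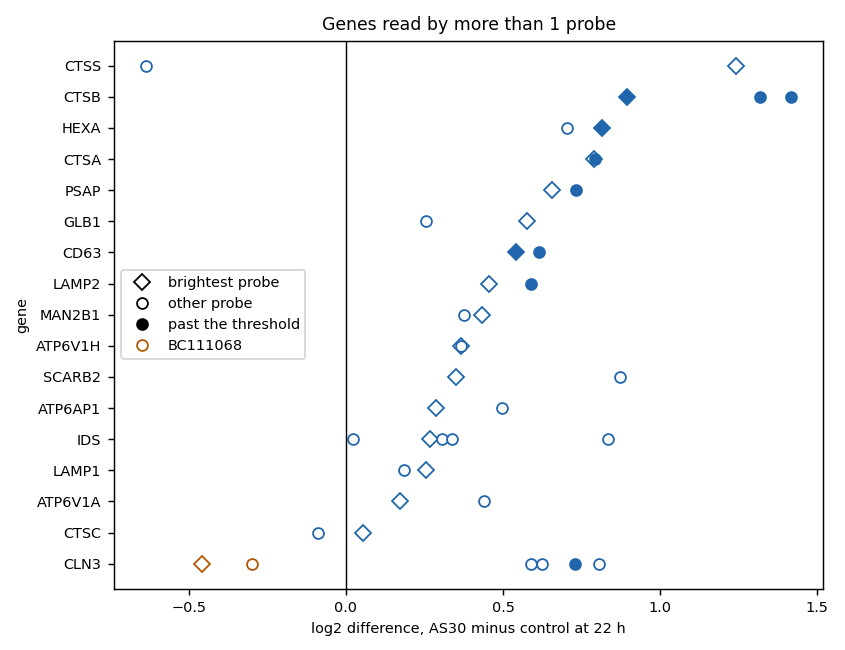
Log2 difference at 22 h after AS30 for every kept probe of the 17 genes with more than 1, where diamonds mark the brightest probe, filled symbols those past the threshold and brown those of BC111068. CLN3 splits into 2 probes below 0 and 4 above, and the dim CTSS probe lies opposite to the bright one.

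Of the 17 genes with more than 1 kept probe, 14 had all their probes on one side of 0 at 22 h, and 57 of the 63 kept probes of the members were above 0. Of these 63 probes, 15 were called higher, against 2.54% of the 28155 probes tested. Counting any probe, 12 genes were called higher and none lower. A second probe of CTSA (0.79), LAMP2 (0.59) and PSAP (0.73) and 1 probe of CLN3 (0.73) also passed. The count by any probe favors genes with several probes, and the share of all genes under that rule was not computed. CTSA, the protective protein of NEU1 and beta-galactosidase, was at 0.79 ± 0.20 by its brightest probe (adjusted p = 0.0698). The 3 probes of CTSB were at 0.90, 1.32 and 1.42 and were all called.

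CLN3, a membrane protein of lysosomes, depended on the probe. The brightest probe, at -0.46 ± 0.14 (adjusted p = 0.113), and a second at -0.30 belong to the transcript record BC111068 in the file, on chromosome 16 (hg18, chr16:28385512-28385571 for the first). The 4 probes of the CLN3 record NM_000086 lie 10849 bases or more further along and were at 0.81, 0.59, 0.62 and 0.73, with adjusted p-values of 0.0846, 0.0552, 0.0543 and 0.0256. By the brightest NM_000086 probe, a choice made after the values were seen, 36 of the 38 genes were above 0.

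The 22 h response to AS30 was compared with the 3 h response, each against its own controls. None of the 38 genes was called, and 0.0142% of all probes were called in each direction. The median of the differences was 0.42, 33 of 38 were above 0, and 18 had an unadjusted p under 0.05 (47.4%, against 16.9% of all probes). LIPA, at -0.05 after 3 h and 1.00 after 22 h, differed by 1.06 (95% interval 0.66 to 1.46, adjusted p = 0.0906), and TPP1, at -0.28 and 0.91, by 1.19 (0.61 to 1.78, adjusted p = 0.117). NEU1, which was above its controls at both times, differed by 1.27 (0.39 to 2.15, adjusted p = 0.189), and CTSH by 0.92 (0.50 to 1.34, adjusted p = 0.114). CTSK and MANBA, the genes called higher after SM30, had differences of -0.30 (-0.66 to 0.06) and -0.10 (-0.56 to 0.35). TFEB, called lower after SM30, differed by 0.11. The values of CTSK and MANBA were lower at 22 h than at 3 h, without a call, while 33 genes lay above 0.

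**Figure D4:**
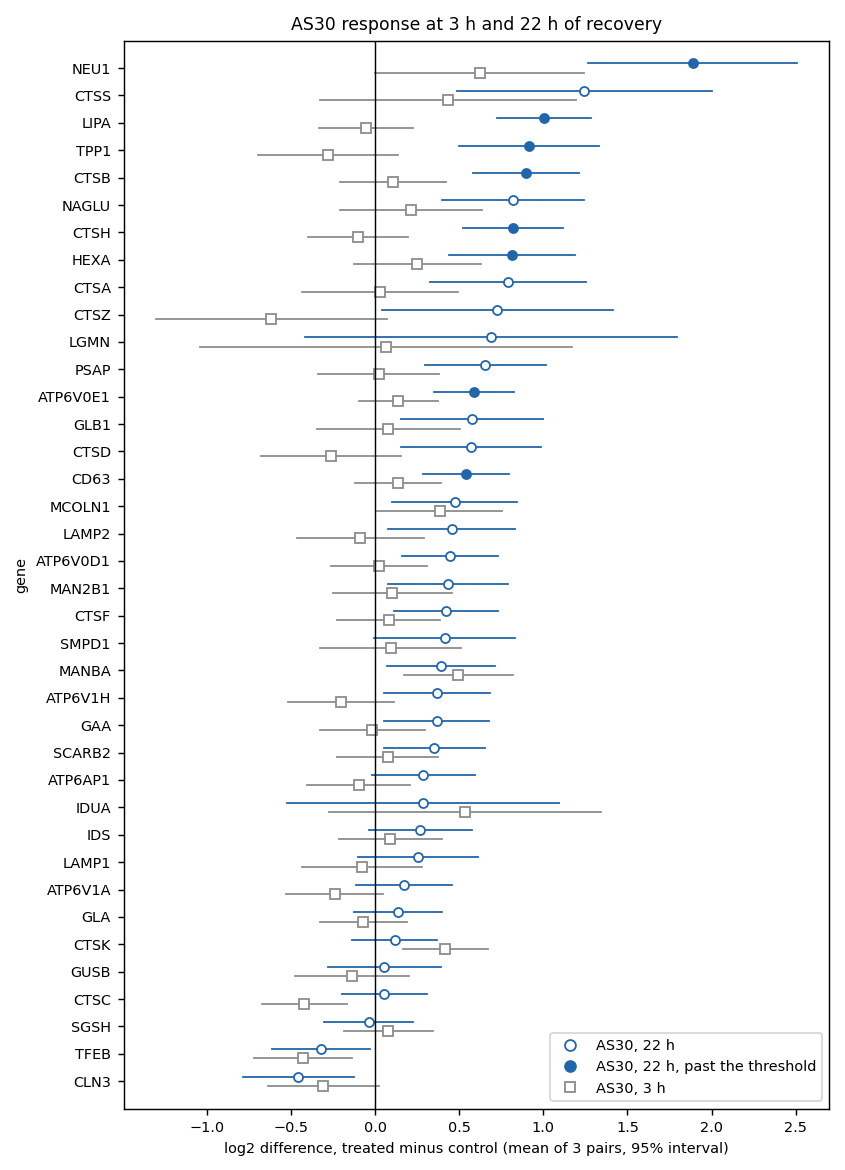
Log2 difference from controls for the 38 genes at 3 h (gray squares) and 22 h (blue circles) after AS30, as the mean of 3 pairs with the 95% interval of the fit, filled where called. The blue points lie to the right of the gray ones in 33 genes, while TFEB and the brightest CLN3 probe stay left of 0 at both times.

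Set beside the promoter sequences, the 10 genes with CACGTG had a median difference of 0.46 at 22 h after AS30, from -0.46 for the brightest CLN3 probe to 1.89 for NEU1. With CLN3 read through NM_000086 instead (0.81), the median was 0.51 and the lowest value was 0.26, that of LAMP1. The 15 genes with a window and no such motif had a median of 0.35, from -0.32 for TFEB to 1.00 for LIPA. Of the called genes with a window, NEU1 and CD63 held the motif while LIPA, TPP1 and CTSH did not. The other 13 genes, for which no window was read, had a median of 0.59.

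A further 77 lysosome genes were listed, also with earlier results of these data known, and 69 of them had a kept probe. At 22 h after AS30, 17 of 68 tested were higher and none was lower, where 2.54% of all probes were called higher and 1.04% lower. Their median was 0.40 and 55 were above 0, against 49.5% of all probes. They included CD68, a lysosomal glycoprotein (1.67 ± 0.25, limma adjusted p = 0.0198), ACP5, an acid phosphatase (2.24 ± 0.41, adjusted p = 0.0321), ASAH1, acid ceramidase (1.06 ± 0.18, adjusted p = 0.0240), and M6PR, a mannose 6-phosphate receptor that sorts hydrolases to the lysosome (0.98 ± 0.13, adjusted p = 0.0181). Of the transcription factors related to TFEB, 2 were tested and none was called.

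Of these 69 genes, 1 was higher and 1 lower after SM30 at 3 h, where 4.35% of all probes were called higher and 3.13% lower, and their median was 0.12. CTSL1, the protease cathepsin L, was at 1.21 ± 0.20 (limma adjusted p = 0.0108) and was also called at 22 h after AS30, at 1.01 ± 0.20 (adjusted p = 0.0352). GGA2, an adaptor in sorting from the Golgi, was at -0.60 ± 0.15 (adjusted p = 0.0437). None was called after AS30 at 3 h, where the median was 0.11, and none in either difference between responses.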

How the data were processed

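RNA of A549 cells was read on 18 one-color Agilent arrays in 6 groups of 3 biological replicates, grouped by their labels. The authors deposited a file of spot intensities per array from Feature Extraction 10.5.1.1, background-corrected, on a linear scale, with flags for each spot and probe positions on hg18, and a table of their quantile-normalized intensities. Columns not used numbered 0.

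The log2 of the processed signal of non-control spots was quantile-normalized over the 18 arrays with R 4.3.3 and limma 3.58.1, as in the study's methods. Spots not positive and significant were set to missing, outlier spots (a step of this work) were dropped, replicate spots were averaged, and probes with over 33% missing values were removed. This left 28665 of 41000 probes. Treated arrays were divided by the control of the same letter. Limma was fitted to these 9 ratios with a mean for each of the 3 exposures (6 residual degrees of freedom), and p-values were adjusted over all probes tested. Depth is not defined for arrays, and their number limits the precision. Steps were tested on simulated data with independent noise on each array and no slide effect, so that test cannot speak to slides or pairing.

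Members and lists were chosen with earlier results of these data known. Genes given in full are those called in a comparison, the 3 largest rises and falls of one sign per exposure, and genes whose probes disagree. Alternatives were other scaling, background correction and filters, the deposited table, fits without pairing or with slide as a block, single exposures, averaged probes, and each pair left out.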

Additional observations from a re-analysis of the deposited data

How the results depend on the processing

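The number of genes called after SM30 at 3 h (3) was 0 with slide as a fixed block, and ranged from 0 to 3 over the fits without one pair. Over the array, 333 of 28598 probes were called with that block, and from 289 to 2721 without one pair. After AS30 at 3 h (0) the number of genes was 2 with slide as a random block, where 3877 of 28618 probes were called. It was 0 without any one pair, where from 81 of 28447 to 3060 of 28520 probes were called. After AS30 at 22 h (8) the number of genes was 5 with no filter on dim spots and 0 with slide as a fixed block. It was 0 when the exposure was fitted alone, and from 0 to 13 without one pair. Over the array, 508 of 41000 probes were called with no filter, 29 of 27811 with the fixed block, and from 2 to 1364 without one pair. For the 22 h response minus the 3 h response (0) the number of genes was 2 with slide as a random block. It was from 0 to 2 without one pair, where AS30 pair C at 3 h was the one that gave 2. Over the array, 321 of 28176 probes were called with that block and 252 of 28012 without that pair. For SM30 minus AS30 the number of genes was 0 in every fit. Other alternatives gave 2 or 3 genes after SM30 and 6 to 12 at 22 h. Over the array they called from 1292 of 41000 to 3068 of 28665 probes after SM30. At 22 h they called from 810 of 20668 genes, with probes averaged, to 1918 of 28223 probes.

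The letters are replicate labels only, and the deviations of paired arrays correlated at -0.09 to 0.48. With no replicate block, so without pairing by letter, the counts were 3, 0 and 8 in the exposures and 0 in both differences, and 7 of the 8 genes at 22 h were the same. Over the array, that fit called 2518 of 28665, 1313 of 28618 and 1408 of 28223 probes in the exposures. In the differences it called 14 of 28618 for SM30 minus AS30 and 69 of 28176 for 22 h minus 3 h. Averaging all probes of a gene turned 12 signs over the 38 genes and 3 exposures, 2 after SM30, 6 after AS30 at 3 h and 4 at 22 h. None was of a called gene, but of the called genes only CTSB, HEXA and CD63 had more than 1 kept probe. MANBA, CTSK, TFEB, NEU1, LIPA, TPP1, CTSH and ATP6V0E1 had 1 kept probe each, so averaging could not turn them. Among the turned signs were CLN3 (0.33) and CTSS (-0.090) at 22 h and ATP6AP1 (0.18) after SM30. CLN3 through NM_000086, an alternative chosen after seeing the data, was at 0.81. The called genes kept their sign in all alternatives, while 5 moved in size by over 1.5 times. Their smallest values after SM30 were those of TFEB (-0.29), MANBA (0.54) and CTSK (0.50) with normexp, whose offset of 50 itself shrinks ratios. Those at 22 h were of TPP1 (0.54) and CTSB (0.60) with slide as a fixed block. The median over the 38 genes ranged from 0.34 to 0.54 at 22 h. Its range was 0.13 to 0.17 with SM30, and -0.02 to 0.10 with AS30 at 3 h, where its sign depended on the setting.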
